A study of Mus musculus with 4 samples.

Results

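The cells described here are plasma cells that remained in single-cell libraries sorted for mesenchymal stromal cells (MSC) of the mouse gut. They were chosen by UMI counts. A barcode was counted as a plasma cell when it had at least 1 unique molecular identifier (UMI, a tag that marks a single captured RNA molecule) of *Jchain* and of *Mzb1*, at least 1 UMI of *Derl3* or *Xbp1*, and at most 1 UMI of *Col1a2* and *Col3a1* together. It also had to pass a cell filter, with no fewer than 500 detected genes and 1000 UMIs and with mitochondrial genes at 10% of UMIs or less. The rule found 62 plasma cells among 32216 cells that passed the filter, out of 34983 barcodes.

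The libraries came from the lamina propria, the connective tissue under the epithelium, of small intestine and colon of untreated C57BL6/Nrj females aged 8 to 10 weeks. There were 2 independent experiments with 3 mice each, and each intestine was represented by 2 libraries (replicates 1 and 2). The outer muscle had been stripped off, and live cells were sorted as negative for CD45 (leukocytes), Ter119 (red cells), CD31 (endothelium), BP3 (lymphoid stroma), EpCAM (epithelium) and L1CAM (glia) and positive for integrin β1 (Itgb1). The mice of an experiment had been pooled, so that no value belongs to 1 animal. Both groups shared strain, sex, age and lack of treatment and differed by the intestine of origin. Plasma cells are blood-derived cells and were not a population that the sort was set to collect.

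Plasma cells are the antibody-secreting end stage of the B cell lineage. In the gut lamina propria most of them make dimeric IgA, which the J chain joins and which epithelial cells carry into the lumen. Each plasma cell has rearranged 1 heavy chain and 1 light chain gene from germline V segments and transcribes them at a very high rate, and its endoplasmic reticulum is enlarged to fold and export the protein. In mice the light chain is usually of the kappa type.

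The heavy chain V segments of the pairs found in more than 2 cells of a library are printed here, because the same heavy and light V genes came up together in separate barcodes. *Ighv6-6* with *Igkv4-68* led in 3 cells and *Ighv11-2* with *Igkv4-59* in 3 others, all from small intestine replicate 1. The stretch shown of *Ighv6-6* lies at chr12:114434788-114435087 and that of *Ighv11-2* at chr12:114048241-114048540, in the heavy chain locus. Both are on the minus strand of mm10 (GRCm38) and are annotated as V genes. The sequences are the last 300 germline coding bases of the GENCODE vM21 transcripts, 5′ to 3′, all from the second of 2 exons, and were not read from the cells. Capitals mark the stretch from the conserved cysteine codon to the end of the segment, which is the germline start of the third complementarity-determining region, the part of an antibody that most often touches antigen.
Ighv6-6: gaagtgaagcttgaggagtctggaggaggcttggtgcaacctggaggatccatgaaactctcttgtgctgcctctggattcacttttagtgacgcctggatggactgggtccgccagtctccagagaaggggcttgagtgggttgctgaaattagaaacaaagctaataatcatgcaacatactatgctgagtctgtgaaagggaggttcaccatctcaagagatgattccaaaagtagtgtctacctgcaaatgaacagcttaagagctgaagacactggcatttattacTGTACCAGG
Ighv11-2: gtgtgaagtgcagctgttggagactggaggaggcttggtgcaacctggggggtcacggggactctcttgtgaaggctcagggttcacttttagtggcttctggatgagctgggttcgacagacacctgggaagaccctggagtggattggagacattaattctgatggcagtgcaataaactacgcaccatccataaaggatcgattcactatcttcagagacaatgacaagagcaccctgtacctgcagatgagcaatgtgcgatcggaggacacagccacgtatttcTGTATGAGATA
The capitals show that *Ighv6-6* and *Ighv11-2* enter that region with different bases. Reads of near-identical V genes can be split between them, so that the light chain names of these pairs are uncertain. The full coding sequences of *Ighv6-6* and *Ighv11-2*, 357 and 353 bases and thus longer than the stretches shown, were also aligned. They were identical at 245 of 359 aligned positions (68.2%).

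Nearly all of the plasma cells came from 1 library. Small intestine replicate 1 held 58 of them among 1834 cells, 3.16% (95% exact Clopper-Pearson interval 2.41 to 4.07%). Small intestine replicate 2 held 3 among 15263 cells, 0.0197% (0.00405 to 0.0574%). Colon replicate 1 held 1 among 2431 cells, 0.0411% (0.00104 to 0.229%), and colon replicate 2 held 0 among 12688 cells, which allows a share of up to 0.0236% by a floor of 3 counts (0.0291% by the Clopper-Pearson limit). These intervals and all others below cover counting error only. Summed per intestine, 61 of 17097 small intestinal cells (0.357%) and 1 of 15119 colonic cells (0.00661%) were plasma cells. Small intestine replicate 1 accounted for 93.5% of the 62. Across replicate numbers the libraries of the intestines overlapped, since small intestine replicate 2 lay below colon replicate 1. The replicate numbers differed in depth and in Cell Ranger version, and within each number the small intestine was higher, by 3.12 percentage points in replicate 1 and by 0.0197 in replicate 2. The mean share was 1.59% in small intestine and 0.0206% in colon, and this difference did not pass the two-sided exact permutation test over the 4 libraries (p = 0.667, and 2 against 2 libraries cannot reach 0.05). That test did not pair libraries by replicate number. Without small intestine replicate 1 the difference was -0.000912 percentage points, which sets small intestine replicate 2 against the mean of both colonic libraries.

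The libraries differed in depth, and this stood beside every comparison of replicates. The replicate 1 libraries held 2061 and 2590 barcodes and the replicate 2 libraries 16795 and 13537, with 14341443 to 52269372 UMIs per library. The median plasma cell of small intestine replicate 1 had 27042.5 UMIs and 2774.5 genes, against 6755 UMIs and 2403.5 genes in the other cells of the library. In small intestine replicate 2 the median was 8177 UMIs in plasma cells and 2788 in other cells. The colonic plasma cell had 49834 UMIs, against a median of 8845.5 in the other cells. Barcodes shared between libraries numbered 0 to 69 per pair of libraries, and 1 plasma cell barcode of small intestine replicate 1 also occurred in colon replicate 1. A doublet caller marked 11 and 796 cells of the small intestinal and 32 and 458 of the colonic libraries (replicates 1 and 2), and 0 plasma cells were among them.

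The markers that chose the cells set the edge of the group. *Jchain* ranged from 445 to 3292 UMIs in the plasma cells of small intestine replicate 1 (median 1081.5), from 353 to 602 in those of replicate 2, and was 3967 in the colonic cell. *Mzb1*, which encodes a chaperone of the endoplasmic reticulum, ranged from 1 to 387 UMIs (median 64) in small intestine replicate 1. Of the 62 cells, 60 had 0 collagen UMIs and 2 had 1. Just outside the rule stood a cell of colon replicate 2 with 2 collagen UMIs, 12.3% immunoglobulin UMIs, 114 *Jchain*, 18 *Mzb1*, 25 *Mki67* and 0 *Dcn* UMIs. A further 26 barcodes that carried the plasma cell markers had 12 or more collagen UMIs, and each of these also held 38 to 153 UMIs of *Dcn* (decorin, a fibroblast proteoglycan). Of all 27 barcodes over the collagen limit, 9 had over 10% immunoglobulin UMIs and 14 had under 1%. Another 10 barcodes, 9 of them in small intestine replicate 1, met the marker rule but not the cell filter, and all 10 had over 10% immunoglobulin UMIs. With no limit on collagen the libraries held 61, 10, 10 and 8 such cells. The plot of immunoglobulin share by library shows these groups side by side.

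**Figure D1:**
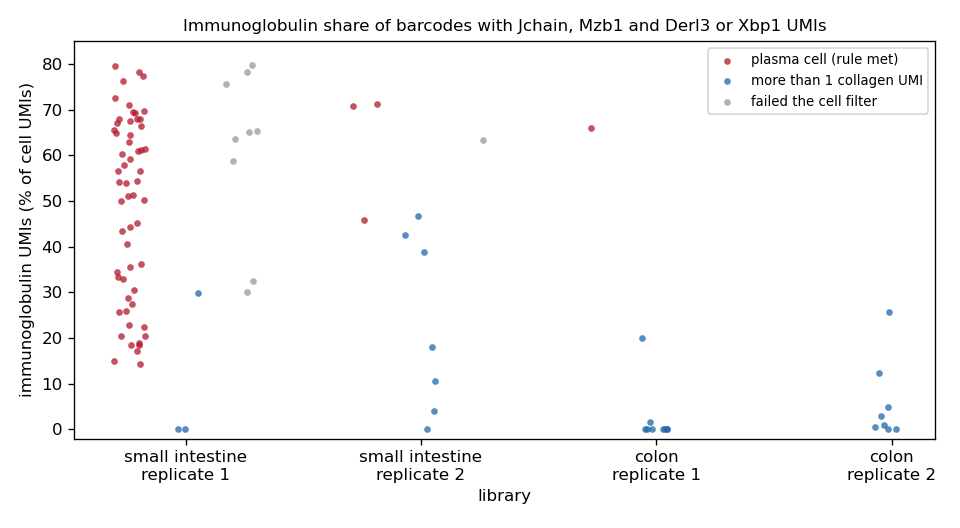
Immunoglobulin UMIs as a percentage of all UMIs of a barcode (y axis) in each library (x axis). Each point is 1 barcode with UMIs of *Jchain*, *Mzb1* and *Derl3* or *Xbp1*, coloured by whether it met the rule (62 cells), had more than 1 collagen UMI (27) or failed the cell filter (10). The plasma cells of small intestine replicate 1 spread from 14.3 to 79.5%, and colon replicate 2 holds 0 cells that met the rule.

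The label was checked against 16 plasma cell genes that the rule did not use, and all 16 had UMIs in the plasma cells of small intestine replicate 1. *Sdc1*, which encodes the plasma cell surface proteoglycan CD138, was present in 59 of the 62 cells. *Tnfrsf17*, which encodes the survival receptor BCMA, was present in 59, *Txndc5*, a protein disulfide isomerase, in 62 and *Slamf7*, a receptor of the SLAM family, in 58. The transcription factors *Prdm1* (Blimp-1) and *Irf4*, which drive plasma cell differentiation, were each detected in 34. *Cd38*, a surface enzyme of many lymphocytes, was sparse, with 7 UMIs in 7 of the 58 plasma cells of small intestine replicate 1 and UMIs in 12.6% of the other cells. In small intestine replicate 1 *Tnfrsf17* had 300 UMIs in 55 of 58 plasma cells and 0 UMIs in 1776 other cells. Of the B cell genes, *Ms4a1* (CD20) had 3 UMIs, *Pax5* 1 and *Cr2* and *Cd22* 0 in the plasma cells of the same library.

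Markers of the cells that the sort aimed for were nearly absent from the plasma cells of small intestine replicate 1. The 12 fibroblast genes summed to 51 UMIs in 20 cells, with *Col1a1* and *Pdgfra* at 0. *Col1a1* was at least 974-fold lower than in the other cells, against a floor of 3 counts over the 58 cells. The 10 genes of smooth muscle and pericytes summed to 5 UMIs, with *Myh11* at 0. Of the 10 endothelial genes 8 were at 0, *Cdh5* and *Plvap* among them, and *Pecam1* gave 17 of the 21 UMIs. *Kit*, *S100b* and *Sox10* were at 0. Genes of other leukocytes were also counted. The 10 genes of T and NK cells summed to 121 UMIs in 20 of the 58 cells and the 12 myeloid genes to 132 UMIs in 11. One plasma cell held 40 of the 67 *Gzma* UMIs, all 32 of *Gzmb* and all 12 of *Nkg7*. Another plasma cell held all 12 *Lyz2*, 14 *C1qa* and 13 *C1qb* UMIs. Over all 58 cells *Cd3d* was at 0, and *Cd3e* and *Cd3g* had 1 UMI each. The part of such droplets in the results was not tested.

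Immunoglobulin RNA took up a large share of these cells. In small intestine replicate 1 it made up 45.4% of all plasma cell UMIs, with 14.3% in the lowest cell, 54.1% in the median and 79.5% in the highest. The 3 cells of small intestine replicate 2 had 45.8, 70.7 and 71.2% (64.7% when summed), and the colonic cell had 66.0%. Immunoglobulin genes made up 0.0306 and 0.0392% of the UMIs of the other cells in small intestine (replicates 1 and 2) and 0.0179 and 0.0164% in colon. The mean over libraries was 55.1% in small intestine (n = 2) and 66.0% in colon (n = 1), and this did not pass the exact permutation test (p = 0.667), which cannot reach 0.05 with so few libraries. The small intestinal libraries alone stood farther apart than that. Within replicate 1 the difference was -20.6 percentage points, and replicate 2 had no colonic plasma cell. *Jchain* UMIs and immunoglobulin UMIs of a cell went together over the 58 cells of small intestine replicate 1 (Pearson's r 0.83, Spearman's rho 0.81), which share a library and differ in depth.

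Whether the UMIs fell on constant or variable segments differed with the replicate number. V segments gave 89.4% of the V and constant region UMIs in the plasma cells of small intestine replicate 1 and 94.0% in the colonic cell of replicate 1, but 0.245% in small intestine replicate 2. In the other cells V segments gave 32.2 and 88.5% in the replicate 1 libraries and 0.258 and 0.284% in the replicate 2 libraries. The 32.2% leans on 1 barcode over the collagen limit, which held 2595 of the 3836 immunoglobulin UMIs of those cells. It had 128 heavy and 425 light V UMIs against 1374 heavy and 668 light constant region UMIs. Kits that read the 3′ or the 5′ end of RNA were both used in the study, and which library had which is not given in the sources used here. V genes were therefore read in the replicate 1 libraries alone.

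The plasma cells were almost uniformly of the IgA class. *Igha*, the IgA heavy chain constant gene (chr12:113254830-113260236, mm10), was the most abundant heavy chain constant gene in 56 of 58 cells of small intestine replicate 1 (96.6%, exact interval 88.1 to 99.6%), in 3 of 3 cells of small intestine replicate 2 and in the colonic cell. It had 42719 UMIs in small intestine replicate 1, or 97.2% of the heavy chain constant UMIs, and was found in all 58 cells. *Ighg1* led in 1 cell and *Ighg2b* in 1. *Ighm* had 48 UMIs in 4 cells, and *Ighd*, *Ighe*, *Ighg2c* and *Ighg3* had 0. The share of IgA cells differed by -1.72 percentage points between small intestine (mean of 2 libraries) and colon (1 library), with p = 1 in the exact permutation test.

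The IgG cells also held IgA transcripts. The cell led by *Ighg2b* had 850 *Ighg2b* and 504 *Igha* UMIs, and its leading V genes, *Ighv1-39* and *Igkv6-23*, were those of an IgA cell of the same library. The cell led by *Ighg1* had 274 *Ighg1* and 66 *Igha* UMIs. In 56 of the 58 cells the leading constant gene held over 95% of the heavy chain constant UMIs.

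Kappa light chains led in 56 of the 58 cells (96.6%) and lambda in 2. *Igkc* had 28248 UMIs in 57 cells. Both lambda cells were led by *Iglc2*, with 327 and 154 UMIs, and by *Iglv3*. The 3 cells of small intestine replicate 2 were kappa cells, with 6064, 2085 and 4921 *Igkc* UMIs. The colonic cell was a lambda cell, with 545 *Iglc1* and 29 *Igkc* UMIs and with *Iglv1* and *Ighv7-3* as its V genes. Lambda UMIs were also present in kappa cells at 0.0911 to 8.64% of light chain UMIs (median 1.27%).

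A single heavy chain V gene dominated each cell, whereas the choice of V gene varied widely among cells. The leading heavy V gene held 91.6 to 100% of a cell's heavy V UMIs, and over 95% in 57 of 58 cells. The leading light V gene held 60.3 to 100%, and over 95% in 47 cells. The lowest of these had 7520 *Igkv17-127* and 4948 *Igkv4-74* UMIs. Among the 58 cells 33 different heavy V genes and 32 light V genes led, in 49 combinations. *Ighv3-6* and *Ighv1-53* led in 5 cells each and *Igkv6-23* in 6. *Ighv3-6* held 16.3% of all heavy V UMIs, *Ighv1-53* 8.15% and *Ighv1-15* 6.60%. *Igkv6-23* held 10.7% of the light V UMIs, *Igkv8-27* 7.66% and *Igkv6-17* 5.95%.

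By family, genes of Ighv1 led in 33 cells (56.9%), and this family has 50.3% of the 185 heavy V gene rows. Genes of Igkv6 led in 14 cells (24.1%), and this family has 5.52% of the 163 light V rows. Genes of Igkv4 also led in 14 cells, and they are 20.2% of the rows. Ighv5, with 11.9% of the heavy rows, led in 4 cells (6.90%). Cells that derive from the same B cell clone are not independent, so these shares are a description and were not tested. The plot of V families sets them beside the number of annotated genes.

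**Figure D2:**
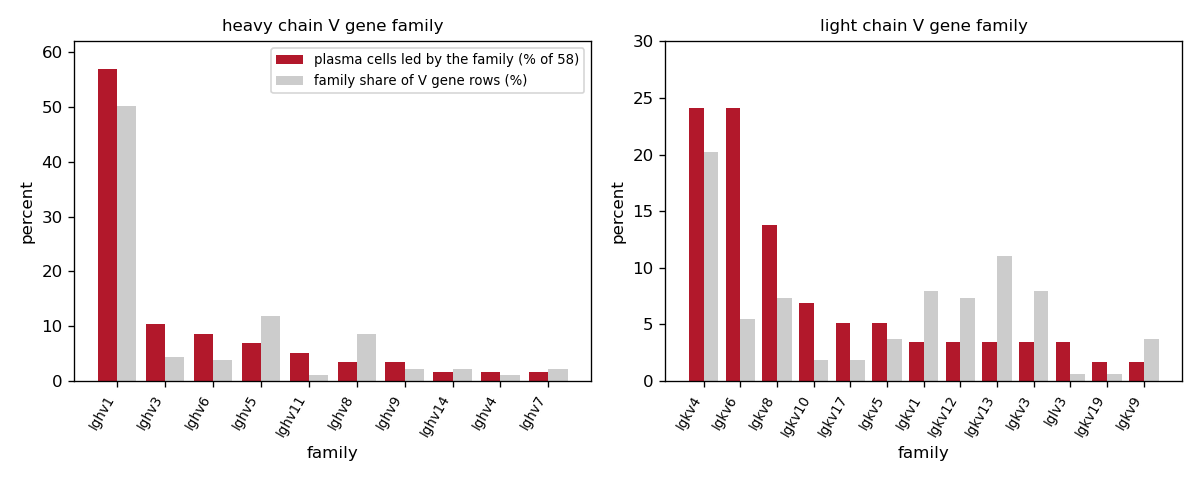
Share of the 58 plasma cells of small intestine replicate 1 whose leading V gene belongs to a family (red bars, % of cells) beside the share of V gene rows that the family has in the deposited table (grey bars, %), for heavy (left) and light chains (right). Ighv1 leads at 56.9% of cells, and Igkv4 and Igkv6 reach 24.1% each against 20.2 and 5.52% of rows.

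Combinations of V genes recurred in 16 cells, with 5 pairs in 2 cells each and 2 pairs in 3 cells each. The *Ighv6-6* and *Igkv4-68* cells had immunoglobulin shares of 22.9, 36.2 and 45.2% and 0 *Mki67* UMIs each. They had 882, 3081 and 3220 UMIs of *Ighv6-6*. The *Ighv11-2* and *Igkv4-59* cells had immunoglobulin shares of 28.8, 54.4 and 63.0%, and *Ighv11-2* held 100% of their heavy V UMIs. One of them had 24 *Mki67* UMIs and the other two 0. The pairs in 2 cells were *Ighv1-19* with *Igkv6-23*, *Ighv1-39* with *Igkv6-23*, *Ighv1-75* with *Igkv12-44*, *Ighv1-82* with *Igkv6-17* and *Ighv3-6* with *Iglv3*. The *Ighv1-19* cells stood far apart, at 14.3% immunoglobulin with 16 *Mki67* UMIs and at 69.8% with 0. No UMI of a J or D segment was counted in the plasma cells, over 31 such gene rows. A shared pair of V names is thus not a shared junction, and clonal origin cannot be read from these counts.

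For the remaining genes, counts were scaled to CPM, the counts of a gene per 1000000 UMIs outside the immunoglobulin genes. They are given for small intestine replicate 1, the only library with 10 or more plasma cells, as the log2 ratio of plasma cells (58) to other cells (1776) with a pseudocount of 1 CPM. The rule chose cells on this contrast, and cells of a library are not replicates, so that these ratios have no test. Of 8386 genes with a mean of at least 10 CPM, 17.7% were above a log2 ratio of 1 and 32.8% below -1, with a median of -0.19. Counts of list members stand against those shares and nothing is drawn from them.

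Of the 16 plasma cell genes outside the rule 15 were above 1 and 1, *Cd38* at -1.63, below -1. Highest in ratio outside the immunoglobulin set were *Mzb1* and *Jchain*, by which the cells were chosen. *Jchain* had 75940 UMIs in plasma cells and 448 in other cells (log2 ratio 11.22), and was 8.78% of the non-immunoglobulin UMIs of plasma cells. Of the 448 UMIs, 330 were in 1 barcode over the collagen limit. *Mzb1* had 5330 and 10 UMIs (11.74). *Pou2af1*, a coactivator of octamer-binding factors in B cells, had 529 UMIs in 53 cells and 2 in other cells. *Tnfrsf17* was at least 1447-fold higher, against a floor of 3 counts over the other cells. *Cd79a* and *Cd79b*, the signaling chains of the B cell receptor, had 617 and 314 UMIs and log2 ratios of 7.62 and 7.79. *Slpi*, a secreted protease inhibitor, had 1154 UMIs in 42 cells (8.88). *Ly6d* and *Lax1*, a lymphocyte adaptor, had 1142 and 334 UMIs. The 15 genes with the highest ratios also held *Derl3* (part of the rule), *Ccr10*, *Slamf7* and *Ube2c* (a cell cycle gene), as well as *Gm43218* and *Gm43291*. The latter are annotated as an immunoglobulin V gene with no family name and as a long noncoding RNA that spans *Igkc*, so that their reads may belong to the kappa locus.

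The endoplasmic reticulum folds and inspects secreted proteins. Of 28 genes of the unfolded protein response 22 were above a log2 ratio of 1, 1 was below -1 and 5 lay between, with a median of 2.32. *Hsp90b1* (the chaperone GRP94) had a log2 ratio of 3.11, *Hspa5* (BiP) 1.42, *Manf* 3.39, *Sdf2l1* 4.54 and *Edem1*, which marks misfolded glycoproteins for removal, 5.27. *Pdia4* was at 3.58 and *Pdia6* at 2.07, while *P4hb* was at 0.23 and *Atf4*, the transcription factor of the PERK arm, was level (312 CPM in both). *Ddit3* (CHOP), which the PERK arm can induce, was at -1.44, with 19 UMIs in plasma cells. *Xbp1* itself, part of the rule, was at 2.89 and had UMIs in 68.8% of other cells.

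Of 32 genes of protein translocation and early secretory transport 24 were above 1 and 0 below -1, with a median of 1.89. *Sec11c*, a catalytic subunit of the signal peptidase, stood out at 5.82, with 2856 UMIs in 58 of 58 cells, whereas its paralog *Sec11a* was at 0.10. The channel subunits *Sec61b*, *Sec61a1* and *Sec61g* were at 3.08, 2.43 and 2.01. *Ssr4* of the translocon-associated complex was at 3.28, *Spcs1* at 2.62 and *Lman1*, a cargo receptor, at 2.69. *Mcfd2*, the partner of *Lman1*, was at -0.98 with 30 UMIs. Across cells the summed level of this list, per 10000 non-immunoglobulin UMIs, ranged from 114 to 413, and it had little relation to the immunoglobulin share (Spearman's rho -0.17, n = 58 cells of 1 library).

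**Figure D3:**
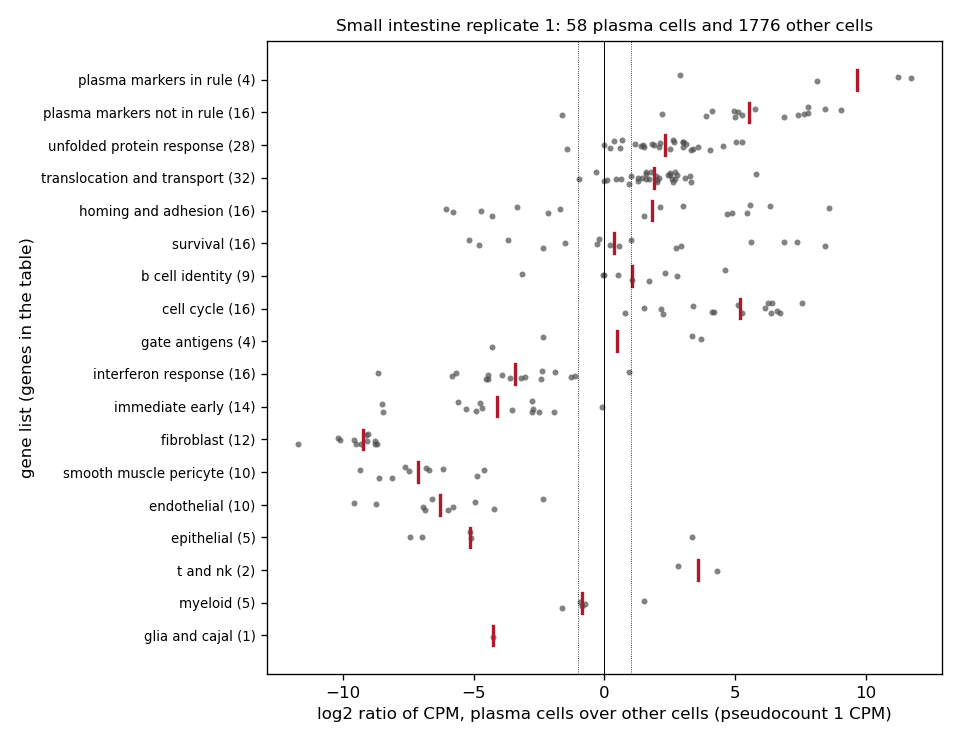
Log2 ratio of CPM in plasma cells over other cells of small intestine replicate 1 (x axis) for the genes of each list (y axis, number of genes in brackets). Grey points are genes, red bars are list medians and dotted lines mark log2 ratios of -1 and 1. Medians run from 9.68 for the markers in the rule to -9.22 for fibroblast genes.

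Receptors that guide plasma cells to mucosa were well represented. Ligands of CCR10 and CCR9 are made by intestinal epithelium, and integrin α4β7 binds the vessel addressin of the gut. *Ccr10* had 437 UMIs in 52 of 58 cells and 4 UMIs in the other cells. *Ccr9* had 107 UMIs in 45 cells and 23 in the other cells. Both receptors were detected in 43 cells, *Ccr10* alone in 9, *Ccr9* alone in 2 and neither in 4. *Itga4* and *Itgb7*, the chains of that integrin, were present in 52 and 54 cells, at log2 ratios of 4.70 and 6.33. *Itgal* and *Itgb2*, the chains of LFA-1, were at 4.87 and 5.57. *Cxcr4*, a receptor of bone marrow plasma cells, had 7 UMIs in 3 cells, and *Cxcr3* and *Ccr7* had 0. Of the 16 genes of the homing list that entered the ratios 9 were above 1 and 7 below -1. The latter included *Icam1* (-6.06), *Vcam1* (-5.81), *Ackr3* (-4.70), *Cd9* (-3.36), *S1pr1* (-2.17) and *Klf2* (-1.72). *Cd44* was at 2.12, *S1pr4* at 3.01 and *Gpr183* at 1.51. In the colonic cell *Ccr10* had 3 UMIs, *Ccr9* 0, *Itga4* 2 and *Itgb7* 0, and in small intestine replicate 2 all 3 cells had *Ccr10* UMIs and 0 had *Ccr9* UMIs.

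The genes of the surface proteins used in the sort were read in the same cells. *Ptprc* (CD45), which the gate excluded, had 89 UMIs in 41 of the 58 plasma cells, with 0 to 5 per cell, and 89 UMIs in 1776 other cells. *Itgb1*, the positive marker of the gate, had 22 UMIs in 18 plasma cells and 6543 UMIs in the other cells, a 20.6-fold lower level in plasma cells (counting interval 13.6 to 32.8). *Epcam*, another excluded marker, had 97 UMIs in 39 plasma cells and 128 UMIs in 0.225% of other cells, and the colonic plasma cell had 7. The other epithelial genes were nearly silent in the 58 cells, with *Krt8*, *Krt19*, *Cdh1*, *Fabp2* and *Muc2* at 0 and *Krt18* at 2 UMIs. *Pecam1* (CD31) had 17 UMIs, *L1cam* 2 and *Bst1* (BP3) 0. RNA counts do not measure the surface proteins on which cells were gated, and how these cells came through the gate was not tested.

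Because plasma cells were deeper than other cells, shares of cells with a UMI were also computed as the mean outcome of thinning each cell to 4000 non-immunoglobulin UMIs, which left 54 plasma cells and 1310 other cells and left out 4 and 466. *Ccr10* was then found in 79.8% of plasma cells (89.7% before thinning) and 0.124% of other cells, *Ccr9* in 43.0% (77.6%) and 0.218%, and *Itgb7* in 65.5% (93.1%) and 0.653%. *Itgb1* was found in 12.3% (31.0%) of plasma cells and 81.6% of other cells, *Epcam* in 35.0% (67.2%) and 0.197%, and *Ptprc* in 37.5% (70.7%) and 1.18%. The order of plasma and other cells for these 6 genes was the same as without thinning.

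**Figure D4:**
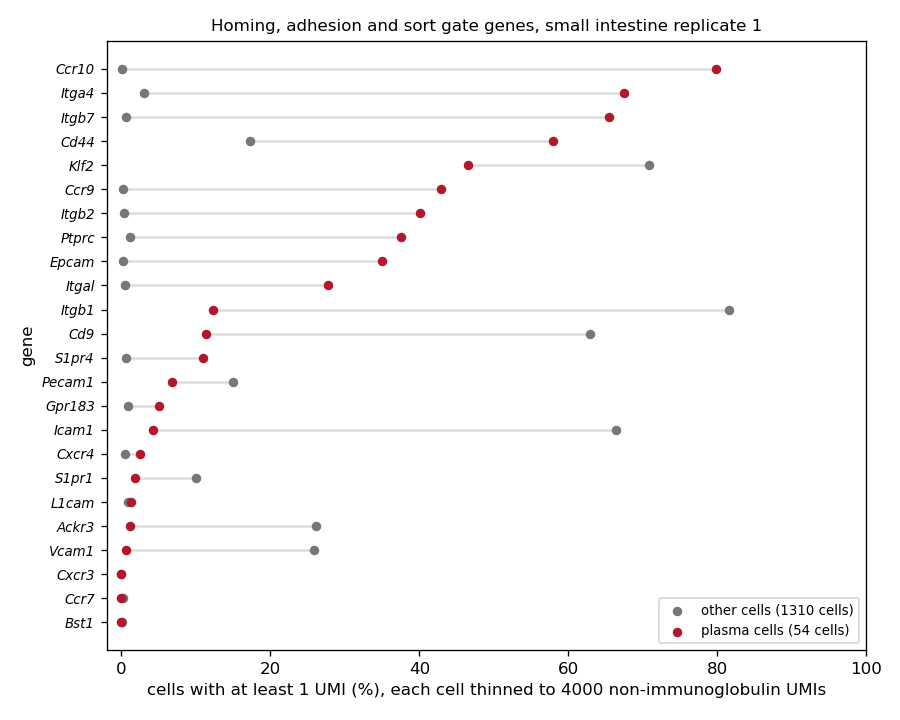
Percentage of cells with at least 1 UMI of homing, adhesion and sort gate genes (y axis) in small intestine replicate 1, as the mean outcome of thinning each cell to 4000 non-immunoglobulin UMIs. Red points are 54 plasma cells and grey points 1310 other cells. *Ccr10*, *Itga4* and *Itgb7* lie at 65.5 to 79.8% in plasma cells, and *Itgb1* lies at 12.3% against 81.6% in other cells.

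Of 18 survival genes 16 entered the ratios, with 7 above 1 and 5 below -1 (median 0.38). *Tnfrsf13b* (the receptor TACI) had 227 UMIs in 51 cells and *Cd28* 167 UMIs in 42, at 6.85 and 5.62. *Ly6c2* was at 7.37, with UMIs in 38 cells. *Mcl1*, on which plasma cells depend for survival, was at -0.28 and *Bcl2* at 0.21. The interleukin 6 receptor chains *Il6ra* and *Il6st* were at -4.80 and -3.68, with 1 and 10 UMIs. Of the genes for antigen presentation *Cd74* (the invariant chain) had 3101 UMIs in 57 cells (2.79), *H2-Ab1* 297 in 52 cells (1.72), *H2-Eb1* 183 in 46 (1.06) and *H2-Aa* 112 in 22 (-0.07), while *Ciita*, their master regulator, had 0. Of 18 genes of B cell identity and antigen presentation 9 entered, with 5 above 1 and 1, *Ebf1* at -3.17, below -1.

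Interferon response and immediate early genes were read in the same way. Of 16 interferon response genes that entered the ratios, 15 were below -1 and 0 above 1 (median -3.41), with *Iigp1*, *Ifit1* and *Ifit3* at 0 UMIs and *Bst2* at 0.93. Of 14 immediate early genes 13 were below -1 (median -4.11). *Atf3* had 2 UMIs and *Hspa1a* 2, and *Jund* was at -0.09.

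Genes of the cell cycle were detected in a part of the plasma cells. Of 16 cell cycle genes 15 were above a log2 ratio of 1, with a median of 5.20, and *Pcna* was at 0.78. *Mki67* had 192 UMIs in 26 of 58 plasma cells and was found in 0.90% of the other cells. It was unevenly spread, with 32 cells at 0, 14 at 1 to 4 and 12 at 5 or more UMIs, up to 33. *Top2a* had 170 UMIs in 11 cells and *Ube2c* 217 in 14. Per 10000 non-immunoglobulin UMIs the 16 genes together made up 0 in the lowest cell, 3.18 in the median and 83.0 in the highest. In the 12 cells with 5 or more *Mki67* UMIs the rate was 27.5 to 83.0, above every one of the 46 others, among which it reached 18.6. *Mki67* is itself 1 of the 16 genes, so that this separation is partly built in. The colonic cell had 3 *Mki67* UMIs, and the 3 cells of small intestine replicate 2 had 0 UMIs of all 16 genes.

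The cells with 5 or more *Mki67* UMIs had low immunoglobulin shares, whereas those with 1 to 4 spread over nearly the whole range. The 12 cells with 5 or more *Mki67* UMIs had immunoglobulin shares of 14.3 to 44.3% (median 21.5%), against 22.9 to 79.5% (median 62.1%) in the 32 cells with 0, so that the groups overlapped, and all 12 lay below the median of the 58 cells. The 14 cells with 1 to 4 *Mki67* UMIs had 17.2 to 77.4% (median 55.4%). The 12 cells held 3545 to 5516 genes (median 4653), against 572 to 3534 (median 2540) in the 32 cells with 0, and these ranges did not overlap. In absolute UMIs the difference lay mainly in the other genes. Median immunoglobulin UMIs were 9210 in the 12 cells and 12088 in the 32, while non-immunoglobulin UMIs were 28628.5 and 9349.5. Over the 58 cells the immunoglobulin share had a Spearman's rho of -0.84 with the number of genes and -0.58 with the cell cycle rate, while immunoglobulin UMIs had -0.23 with that rate. The points share a library and the total UMIs of each cell, so that these are descriptions. Of the 12 cells, 3 belonged to V pairs seen in more than 1 cell and 9 did not.

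The 58 cells were split at the median immunoglobulin share of 54.1% after the values had been seen. All 16 cell cycle genes were above a log2 ratio of 1 in the 29 cells with the lower share relative to the other 29 cells, where 18.8% of 6556 genes were above 1 and 11.7% below -1. Of the 16 genes 11 had 0 UMIs in the higher-share cells, *Top2a*, *Stmn1*, *Ube2c* and *Birc5* among them. The unfolded protein response list had a median of 0.15 and the translocation list 0.25. *Itgb7* was lower in the lower-share cells (-1.78), and *Ccr10* (-0.48) and *Ccr9* (-0.26) were within a factor of 2. At the other end, 4 cells had under 1000 genes (572 to 700), with 68.1 to 79.5% immunoglobulin, 6565 to 13985 UMIs and 0 *Mki67* UMIs.

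**Figure D5:**
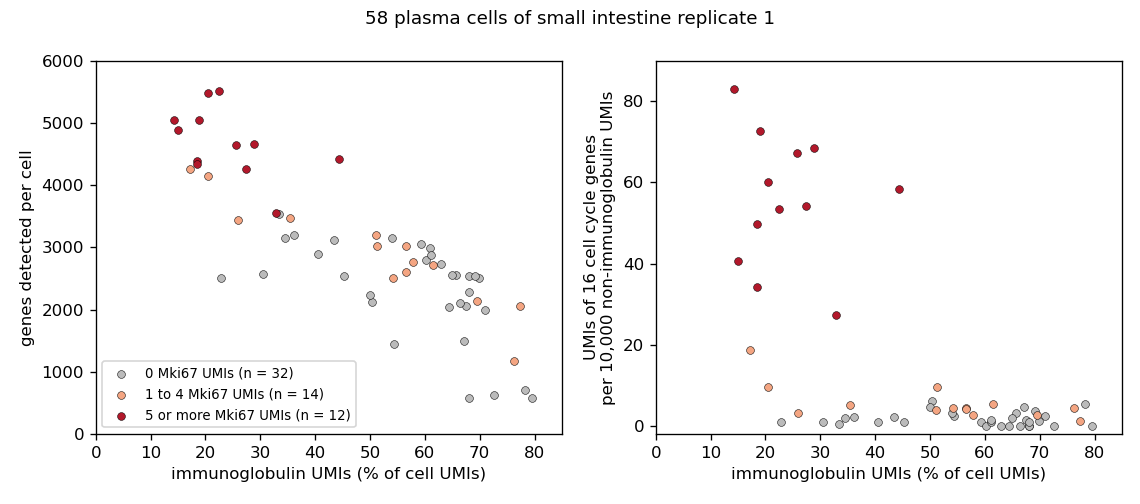
Immunoglobulin share (x axis, % of cell UMIs) against genes detected (left) and against UMIs of 16 cell cycle genes per 10000 non-immunoglobulin UMIs (right) in the 58 plasma cells of small intestine replicate 1. Each point is 1 cell, coloured by *Mki67* UMIs (0, 32 cells; 1 to 4, 14 cells; 5 or more, 12 cells). The 12 cells with 5 or more lie at 14.3 to 44.3% immunoglobulin and 3545 to 5516 genes.

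Immunoglobulin RNA was also counted at low levels in the other cells. At least 1 immunoglobulin UMI was found in 30.5% of the other cells of small intestine replicate 1, against 7.01% in small intestine replicate 2, 11.6% in colon replicate 1 and 6.94% in colon replicate 2. The median depth of the other cells was 6755, 2788, 8845.5 and 3927 UMIs in the same order of libraries. What the differences between the libraries come from was not tested. Other cells with over 1% immunoglobulin UMIs numbered 3, 18, 5 and 9. Without them immunoglobulin genes made up 0.00886% of the UMIs of other cells in small intestine replicate 1 and 0.00421, 0.00596 and 0.0046% in the other libraries. *Jchain* was found in 5.80, 1.19, 5.06 and 1.85% of other cells.

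In small intestine replicate 1 most V gene UMIs of the other cells were of genes that led a plasma cell. These were 33 of 185 heavy V gene rows and 32 of 163 light V gene rows. The share to be expected from commonly used V genes was not computed. Of 185 heavy V UMIs in other cells of small intestine replicate 1 with at most 1% immunoglobulin, 91.9% were of the 33 genes that led a plasma cell, and of 413 light V UMIs 83.1% were of the 32 leading genes. Over 64 heavy V genes the counts in both groups had a Spearman's rho of 0.58, and over 67 light V genes 0.62. These genes are not independent and share the library. In colon replicate 1, where 1 plasma cell was found, its heavy V gene *Ighv7-3* gave 3.50% of 257 heavy V UMIs of other cells and its light V gene 8.92% of 751 light V UMIs. Spearman's rho with the counts of that 1 cell was -0.18 over 48 heavy V genes and 0.06 over 56 light V genes. The colonic set was 1 gene per chain, against 33 and 32 in small intestine replicate 1. The shares therefore cannot be compared between these libraries.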

How the data were processed

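Single cells of sorted small intestinal and colonic MSC were counted by the authors with Cell Ranger against mm10, in version 3.0.2 (replicate 1) or 3.1.0 (replicate 2) as the submitters' processing notes state. What was deposited are UMI counts for 28692 gene rows in each barcode, with no scaling. Groups followed the sample labels. Nothing states which library had a 3′ or 5′ kit.

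Barcodes with at least 500 genes, 1000 UMIs and at most 10% mitochondrial UMIs were kept, and plasma cells were chosen by the marker rule. The members and the gene lists (20 lists, 276 entries) were chosen with earlier results of these data known. Immunoglobulin genes are the 392 rows named as constant, V, D or J segments. The leading gene of a chain is the one with the most UMIs, with a minimum of 3 for the isotype. CPM used non-immunoglobulin UMIs, and ratios used a pseudocount of 1 CPM over genes with a mean of at least 10 CPM.

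Shares per library were compared between intestines with a two-sided exact permutation test. The planned count models of colon against small intestine, and of the class by intestine term, need at least 10 plasma cells in several libraries. Only 1 library had them, so that neither was fitted and no genes were named from them. The rule for named genes was otherwise the marker and collagen genes of the rule, up to 8 members of a list with the highest level (all members of the constant region, gate and homing lists), the 3 most abundant V genes per chain and library, and the 15 non-immunoglobulin genes with the largest ratio among those with at least 20 plasma cell UMIs, applied to small intestine replicate 1 alone. Further list members, including those at 0, were named after their values had been seen. Doublets were called with scrublet in scanpy 1.11.5 and were not removed. Its automatic threshold marked 1 cell (0.00655%) of small intestine replicate 2 and had not worked there, so that the threshold of colon replicate 2 was used for that library, a choice made after seeing the data. Steps ran in Python 3.11.15 with numpy 2.4.6, scipy 1.17.1, pandas 2.3.3 and Biopython 1.88. The calculation of the ratios of plasma to other cells was tested on simulated counts. Positions are of GENCODE vM21, where 28339 of 28692 gene IDs matched. Some list genes and sequences are not reported here. Nothing in the labels ties cells to animals, so that p-values measure the spread between libraries.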

Additional observations from a re-analysis of the deposited data

How the results depend on the processing

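The intestinal differences in the share of plasma cells, in their immunoglobulin share and in their IgA share were recomputed with at least 3 UMIs of *Jchain* and *Mzb1*, with 0 collagen UMIs, without called doublets, with at least 1000 genes and, added after seeing the data, with no limit on collagen. The IgA share was also taken over cells whose leading constant gene held at least 80%. Of 27 values 24 kept their direction, 2 reversed and 1 was 0. No p could reach 0.05 with so few libraries, so that the p-values say nothing about stability. With no limit on collagen the immunoglobulin share reversed, to 26.6 percentage points higher in small intestine (43.1 against 16.5%), and 26 of the 27 cells added there hold 12 or more collagen UMIs. Leaving out each library in turn gave -0.000912 to 3.14 percentage points for the share of plasma cells, the lowest, a reversal, being without small intestine replicate 1. It gave -20.6 to -1.31 for the immunoglobulin share and -3.45 to 0 for the IgA share, the latter without small intestine replicate 1. Without colon replicate 1 no colonic plasma cell was left and the last 2 have no value. With the replicate number as a block, added after seeing the data, the share of plasma cells differed by 1.57 percentage points (p = 0.5 in a two-sided exact sign-flip permutation test over 2 pairs, the smallest it can give). The other shares had 1 pair, and whether the numbers pair the libraries could not be tested with 2 pairs. The block planned for a count model was not run, since that model needs at least 10 plasma cells per library and only 1 library had them. That model and the class by intestine model, with their alternatives of filter, normalization, immunoglobulin genes left out and libraries left out, were not run. Precision is limited by 1 library with 58 cells.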
